A study of Oreochromis niloticus with 24 samples.

Results

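The common gonadotroph genes of males are the genes that the male table lists and the female table does not, and whose reads in males were above the Negative cells in both LH and FSH cells and near each other in those 2 cell types. From the means of log2(NR + 1) over 4 libraries, where NR are normalized reads (the reads of a gene divided by a size factor of its library), a member had LH minus Negative above 1.5, FSH minus Negative above 1.5, and LH minus FSH between -1 and 1. Of the 2932 genes in the male and female tables, 2392 are in the male table, 1083 of these are not in the female table, and 61 of these passed the 3 limits. The genes sstr3 and gpr158 are among the 61 and were left out by name, which leaves 59 members. The members were thus chosen by their values in the 12 male libraries, and their differences between fractions are given as a description. Calls on these differences are not read as tests of the members.

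The libraries come from mature Nile tilapia (Oreochromis niloticus, Lake Manzala strain) that carry 2 transgenes, red fluorescent protein (RFP) under an LH promoter and green fluorescent protein (GFP) under an FSH promoter. Pituitaries were pooled, 20 to a pool per the labels, digested with trypsin and sorted by fluorescence, and the sort was repeated 4 times in each sex. The groups used here are male LH cells (RFP positive), male FSH cells (GFP positive) and male Negative cells, which showed neither colour, with 4 libraries each, and all 3 carry the transgenes. Fractions with the same replicate number were taken to come from the same pool, since the study collected the fractions of a cell suspension simultaneously. The reporters mark a cell by the activity of its hormone promoter, so that the Negative fraction is a mixture of all other pituitary cells. In such bulk samples fewer cells of a type and less RNA per cell cannot be told apart.

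Teleost fish keep their gonadotropins in separate cells, in contrast to mammals, where one gonadotroph makes both. LH and FSH cells are electrically excitable endocrine cells that receive hypothalamic peptides through G protein-coupled receptors, raise their calcium through voltage-gated and store-operated entry, and release hormone by calcium-dependent exocytosis.

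On the genes of the male table, the libraries held 362952 to 512008 reads in LH cells, 771683 to 2004647 in FSH cells and 173803 to 243837 in Negative cells. A count of 0 allows up to 3 reads, which is 3.12 to 4.83 NR in LH libraries, 1.22 to 3.69 NR in FSH libraries and 2.64 to 4.52 NR in Negative libraries, for counting error only. All 6 gonadotroph markers of the list were in the male table. The LH subunit gene lhb (LOC100534501) averaged 5653 NR in LH cells, against 20.3 NR in FSH and 15.7 NR in Negative cells, and fshb averaged 48574 NR in FSH cells, against 106 NR in Negative cells (194 NR in LH cells). Of the other marker lists, none of 7 genes of other pituitary cells, 5 of macrophages, 2 of red cells and 6 of glia and stem cells was in the male table, which lists only genes enriched in LH or FSH cells. Of the 6 vessel genes 1 was listed (cdh5), with a mean of 36.4 NR in LH and 10.5 NR in FSH cells, against 16.3 NR in Negative cells. Of the 6 genes of neurons 4 were listed (elavl3, elavl4, snap25 and syt1, which endocrine cells also use), with sums of 1756 to 1934 NR in LH and 2767 to 4768 NR in FSH libraries, against 556 to 962 NR in Negative libraries. None of these markers is a member, and their part in the members' levels was not tested.

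The 59 members stood at a median of 1.82 (LH) and 1.96 (FSH) above Negative cells on the log2(NR + 1) scale, as the rule requires of each of them. The same medians over all 2392 genes of the male table were 1.05 and 1.39. The highest difference among members was 3.23 for LH cells (npnt) and 2.69 for FSH cells (f7i), and 11 members were more than 2 above Negative in both. Negative library 2 held 0 reads of npnt and of f7i, so these highest values depend on the pseudocount. Summed over the members, NR were 14404 ± 2565 in LH libraries and 15291 ± 1822 in FSH libraries, against 4231 ± 741 in Negative libraries (SD, n = 4 each). In LH libraries 1 to 4 these sums were 17471, 15229, 13477 and 11440 NR. LH library 1 was the highest LH library in 44 members, and without it 44 male-only genes passed the limits, 43 of them members. In 43 of 59 members all LH and all FSH libraries lay above all Negative libraries, against 40.8% of all genes in the male table. A gene was called where limma gave it an adjusted p below 0.05 and a log2 fold change past 1. By this, 58 members were called in LH cells (background 51.2% of the table) and 59 in FSH cells (background 75.8%). These contrasts chose the members, so that nothing is read from these counts.

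**Figure D1:**
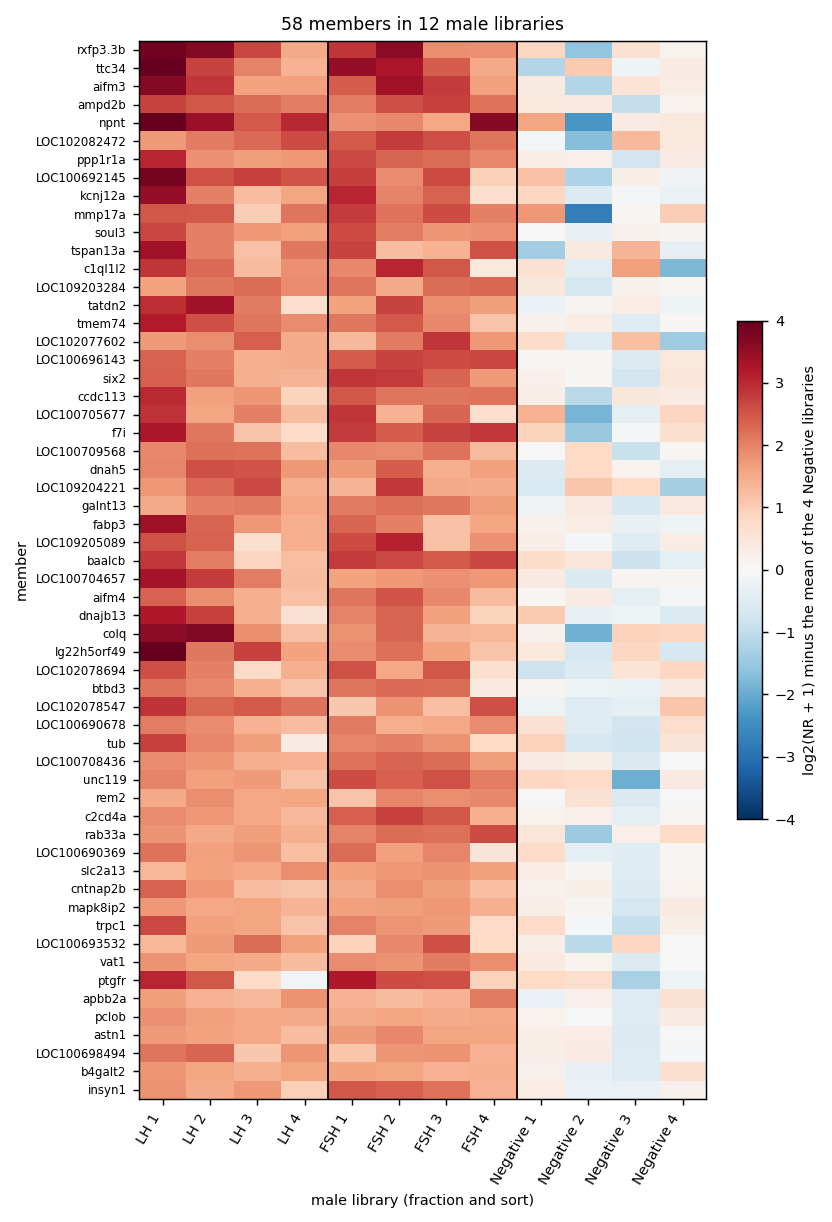
Each row is 1 of 58 members (1 is not shown) and each column a male library, from left to right the LH, FSH and Negative libraries of sorts 1 to 4; the colour gives log2(NR + 1) minus the mean of the 4 Negative libraries and saturates at 4. Members are ordered from the largest to the smallest of their smaller difference, and LH 1 is the highest LH library for 44 of the 59 members.

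The differences rest on the authors' size factors. Scaling the table by the trimmed mean of M values (TMM) moved the median of all its genes by -1.01 for LH minus Negative and -1.40 for FSH minus Negative. After this none of the male-only genes considered passed the 3 limits (0 genes), and genes in both tables were not counted. Relative to the median of the table, the members' median was 0.77 higher for LH minus Negative and 0.57 higher for FSH minus Negative with the authors' size factors, and 0.90 and 0.65 higher with TMM. In 24 members at least 1 Negative library held 3 reads or fewer, and in ptgfr, LOC109205089 and lg22h5orf49 all 4 did. Their fitted differences depend on the pseudocount and are no bound, and with their Negative libraries set to the level of 3 reads the members' medians were 1.82 in LH and 1.91 in FSH cells.

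**Figure D2:**
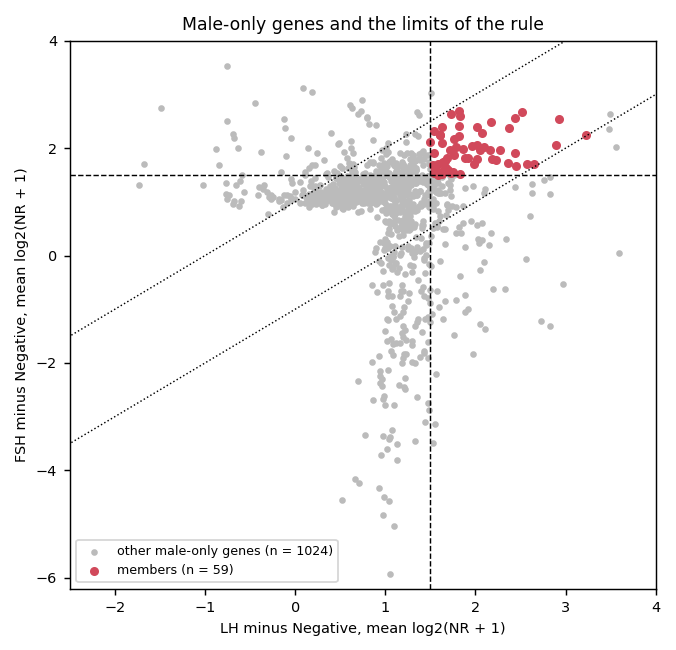
Each point is a gene of the male table that is not in the female table, with LH minus Negative on the x axis and FSH minus Negative on the y axis, both as differences of mean log2(NR + 1). Dashed lines mark the limit of 1.5, dotted lines a difference of 1 between LH and FSH, and the 59 members in red fill the corner between them, with the other genes in grey (sstr3 and gpr158, left out by name, are the grey points inside).

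The limits cut through a continuous cloud of genes. Just inside the LH limit stood insyn1 at 1.5002, astn1 at 1.52 and apbb2a at 1.54, and just outside it the sodium-activated potassium channel gene kcnt1b at 1.495, cfap299 at 1.491 and the pacemaker channel gene hcn4l at 1.487. At the FSH limit, b4galt2 and LOC100698494 were inside at 1.51 and pclob at 1.53, with the potassium channel gene kcnc1 at 1.496, elapor2a at 1.485 and the potassium channel gene kcnj3 at 1.48 outside. Toward higher FSH cells, baalcb had LH minus FSH of -0.90, f7i of -0.88 and ptgfr of -0.78, and the only gene outside that passed the other limits was ins at -1.52. Toward higher LH cells, npnt stood at 0.99, lg22h5orf49 at 0.94 and colq at 0.87, with LOC100711670 at 1.13 and faim2b at 1.53 outside. A further 93 male-only genes missed the LH limit alone, and 45 missed the FSH limit alone.

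Of 46 genes of G protein-coupled receptors in the male table, 3 were members. Of the whole list, LH cells had 29 genes called above Negative cells, and FSH cells had 28 called above and 9 below them. For this list and those below, the shares over the table are 51.2% called above Negative in LH cells and 75.8% in FSH cells. The table's share called below Negative is not given. Members make up 2.47% of the table, and nothing is read from the counts on the lists. The receptor rxfp3.3b (LOC100691599, linkage group 7, 629734 to 632581 on O_niloticus_UMD_NMBU) belongs to the relaxin-3 receptors, which in mammals couple to inhibitory G proteins. It had 41.8, 36.5, 17.7 and 7.53 NR in LH libraries 1 to 4 and 20.6, 35.1, 9.83 and 9.59 NR in FSH libraries, against 4.28, 0, 3.51 and 2.24 NR in Negative libraries. Both gonadotroph groups lay above Negative without overlap, and the lowest values of LH and of FSH cells were those of sorts 3 and 4. Its differences of 2.92 ± 0.62 in LH and 2.54 ± 0.62 in FSH cells (limma SE, n = 4 per fraction) became 2.155 and 1.667 without sort 2, whose Negative library was at 0 NR. The study lists rxfp3.3b as enriched in both cell types, at smaller fold changes than these, and the reason was not tested. Another gene of this family, rxfp3.3a1, which is also absent from the female table, had 11.8 NR in LH and 1.63 NR in FSH cells, against 2.91 NR in Negative cells on average, and so is not a member.

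LOC100692145 (linkage group 5, 21975619 to 21980629) is named in the study as G-protein coupled receptor 61, an orphan receptor, and was placed on the list by that name, which other genes with only a number were not given. The study groups this gene with the receptors enriched in male LH cells, not with those of both cell types. It had 32.2, 12.6, 14.6 and 12.5 NR in LH libraries and 15.0, 7.75, 13.5 and 3.60 NR in FSH libraries, against 4.28, 0, 1.76 and 1.12 NR in Negative libraries. The LH libraries did not overlap Negative, whereas the lowest FSH library lay below the highest Negative one. The differences were 2.90 ± 0.56 in LH and 2.06 ± 0.56 in FSH cells (limma SE, n = 4 per fraction). The gene ptgfr (linkage group 23, 43361708 to 43366554) encodes the receptor of prostaglandin F2-alpha. It had 19.3, 12.6, 3.12 and 1.25 NR in LH libraries and 21.5, 13.9, 13.5 and 3.60 NR in FSH libraries, against 3.21, 3.02, 0 and 1.12 NR in Negative libraries. All 4 Negative libraries held 6 reads together, LH overlapped Negative, and FSH did not. The difference in LH cells, 1.54 ± 0.72 (limma SE, n = 4 per fraction), was the only one from Negative of a member that missed the call. That contrast chose the members, so nothing is read from the call. The 4 sorts of ptgfr ranked the same in LH and FSH cells.

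**Figure D3:**
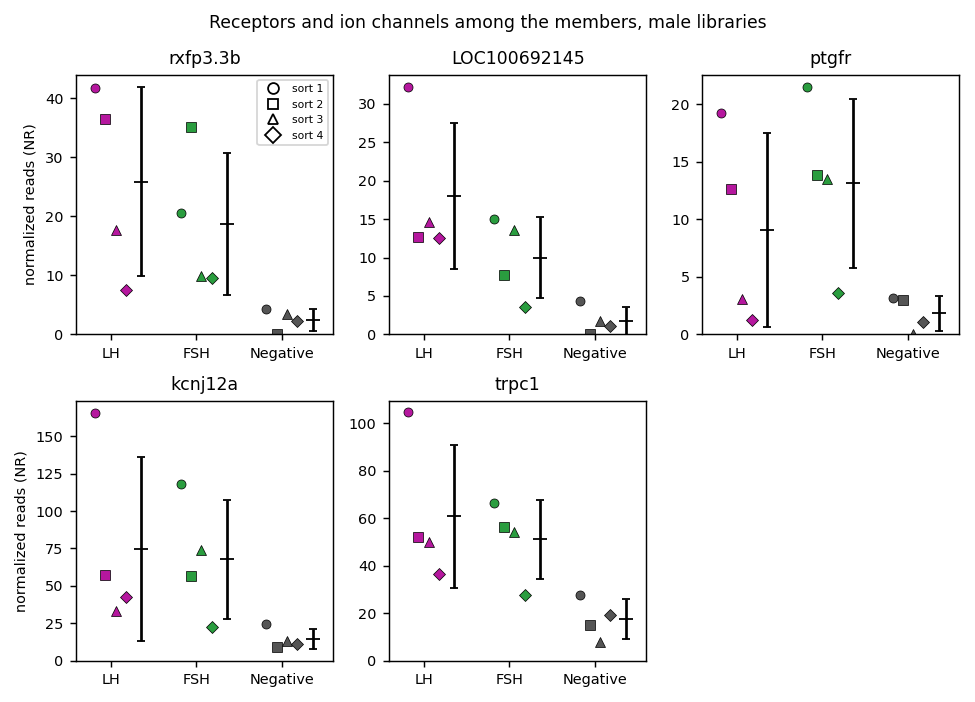
The panels show NR (y axis, linear, from 0) of the 3 receptor members and of the ion channel members kcnj12a and trpc1 in male LH, FSH and Negative libraries; the marker shape gives the sort, and the bar to the right of each group gives the mean and SD of its 4 libraries. In rxfp3.3b every LH and FSH library lies above every Negative library, and in ptgfr and LOC100692145 single libraries of a gonadotroph group reach down to the Negative ones.

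Of 83 genes of ion channels and their subunits in the male table, 3 were members (values of kcnj12a and trpc1 are given here), and of the list 58 were called above Negative in LH cells, while in FSH cells 59 were called above and 14 below. The gene kcnj12a (LOC100691862) encodes the inward rectifier potassium channel Kir2.2, which acts near the resting potential. It had 166, 57.6, 33.3 and 42.7 NR in LH libraries and 118, 56.7, 73.7 and 22.8 NR in FSH libraries, against 24.6, 9.05, 13.2 and 11.2 NR in Negative libraries. Sort 1 was the highest in each of the 3 fractions, and the lowest FSH library lay below the highest Negative library. The gene trpc1, a nonselective cation channel linked to receptor-operated and store-operated calcium entry, had 105, 52.0, 50.0 and 36.4 NR in LH libraries and 66.5, 56.3, 54.1 and 27.6 NR in FSH libraries, against 27.8, 15.1, 7.91 and 19.1 NR in Negative libraries. Its LH libraries did not overlap Negative, and its lowest FSH library fell just under the highest Negative library.

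The ion channel families hold genes of very unequal LH and FSH levels beside the members. The 8 inward rectifier (kcnj) genes of the male table had LH minus FSH between -3.30 (kcnj4) and 4.14 (kcnj5), with kcnj12a at 0.07 and kcnj3, which missed the FSH limit narrowly, at 0.23. The 4 trpc genes had LH minus FSH between -1.04 (trpc7b) and 3.48 (trpc6), with trpc1 at 0.20. The rule limits this difference in the members, so the contrast with their relatives is a description. The gene rem2, which encodes a small GTPase that restrains voltage-gated calcium channels, had 113, 143, 116 and 118 NR in LH libraries and 87.0, 153, 145 and 149 NR in FSH libraries, against 38.6, 60.3, 25.5 and 38.1 NR in Negative libraries. Its relatives rrad and gem, in both tables, had LH minus FSH of -2.14 and -0.98.

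Exocytosis and vesicle traffic held 87 genes of the male table and 2 members, and of the list 48 were called above Negative in LH cells, while in FSH cells 77 were called above and 1 below. The gene pclob (LOC106097889, linkage group 7, 55032289 to 55092413), 1 of a pair of piccolo genes, encodes a scaffold of the presynaptic active zone. It had 2840.3, 2479, 2336 and 2279 NR in LH libraries and 2250.2, 2398, 2236 and 2307 NR in FSH libraries, against 878, 808, 569 and 1001 NR in Negative libraries. These are the most normalized reads of any member, and the FSH replicates were tight, at 2298 ± 73.8 NR (SD, n = 4). The differences of pclob were 1.63 ± 0.19 in LH and 1.53 ± 0.19 in FSH cells (limma SE, n = 4 per fraction). The other piccolo gene, pcloa, is in both tables and passed the same limits in males, with 668 NR in LH and 925 NR in FSH cells, against 213 NR in Negative cells on average. The Rab GTPase gene rab33a (LOC100702116), known from Golgi and secretory vesicles, had 65.9, 53.4, 60.4 and 50.2 NR in LH libraries and 73.9, 88.6, 87.2 and 116 NR in FSH libraries, against 25.7, 6.03, 21.1 and 31.4 NR in Negative libraries. All of its FSH libraries were above all of its LH libraries. The gene vat1 (LOC100698302), named for a membrane protein of synaptic vesicles, had 2117, 1854, 1774 and 1479 NR in LH libraries and 2302, 2154, 2607 and 2229 NR in FSH libraries, against 810, 683, 421 and 609 NR in Negative libraries. Here too the FSH libraries lay above the LH libraries without overlap.

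Among regulators, six2 was the only member of 77 genes of transcription and RNA control in the male table, of which 42 were called above and 1 below Negative in LH cells, and 59 above and 3 below in FSH cells. It encodes a homeobox transcription factor and had 1499, 1240.2, 775 and 740.3 NR in LH libraries and 2078, 2005, 1437 and 928 NR in FSH libraries, against 330, 297, 173 and 399 NR in Negative libraries. Levels in both gonadotrophs were highest in sorts 1 and 2 and lowest in sort 4, with no overlap with Negative. Of 93 genes of kinases, phosphatases and second messengers, 2 were members, and 62 were called above Negative in LH cells, and 68 above and 6 below in FSH cells. The gene mapk8ip2, a scaffold of the JNK kinase pathway, had 574, 511, 523 and 443 NR in LH libraries and 540.1, 553, 575 and 470.1 NR in FSH libraries, against 208, 185, 105 and 223 NR in Negative libraries. The gene ppp1r1a, an inhibitor of protein phosphatase 1 that is switched on by cAMP-dependent kinase, had 124, 53.4, 47.9 and 50.2 NR in LH libraries and 94.5, 76.3, 71.3 and 56.4 NR in FSH libraries, against 17.1, 16.6, 7.91 and 17.9 NR in Negative libraries. In both genes LH and FSH libraries lay apart from Negative, and in ppp1r1a LH library 1 stood far above the other LH libraries.

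Of 108 genes of adhesion, guidance and synapse organisation, the members were astn1 and cntnap2b, while 67 were called above and 1 below Negative in LH cells, and 67 above and 17 below in FSH cells. Astrotactin 1 (astn1), a membrane protein of neuronal migration in mammals, had 515, 490.2, 472 and 375 NR in LH libraries and 515, 604, 479 and 476 NR in FSH libraries, against 190, 198, 108 and 158 NR in Negative libraries. The gene cntnap2b (LOC100710710), a neurexin relative that gathers potassium channels on axons in mammals, had 384, 246, 173 and 163 NR in LH libraries and 211, 271, 237 and 170.3 NR in FSH libraries, against 82.5, 85.9, 50.1 and 81.9 NR in Negative libraries. In both the gonadotroph libraries lay above the Negative ones throughout. The gene insyn1, known from inhibitory synapses in the mouse, had 304, 250.0, 293 and 171 NR in LH libraries and 494, 459, 396 and 228 NR in FSH libraries, against 108, 73.9, 72.9 and 98.7 NR in Negative libraries. It is the member nearest to the LH limit, and its FSH libraries of sorts 1 to 3 were above all of its LH libraries.

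Outside the lists, npnt encodes nephronectin, a matrix ligand of integrins. It had 80.4, 53.4, 26.0 and 38.9 NR in LH libraries and 16.8, 18.0, 13.5 and 61.2 NR in FSH libraries, against 13.9, 0, 5.27 and 5.61 NR in Negative libraries. FSH library 4 stood apart from the other FSH libraries, which lay below all LH libraries, and the lowest of them lay just under Negative library 1. The gene colq, the collagen tail of acetylcholinesterase, had 43.4, 47.8, 12.5 and 7.53 NR in LH libraries and 12.2, 18.0, 8.60 and 8.39 NR in FSH libraries, against 3.21, 0, 6.15 and 5.61 NR in Negative libraries. The LH libraries of sorts 1 and 2 were above those of sorts 3 and 4. The membrane-anchored metalloprotease gene mmp17a averaged 28.7 ± 11.4 NR in LH and 35.5 ± 9.19 NR in FSH cells, against 9.98 ± 9.14 NR in Negative cells (SD, n = 4 each), and its Negative libraries ranged from 0 to 21.4 NR.

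Several members belong to metabolism, transport and glycosylation. Of 55 transporter genes in the male table the one member was slc2a13, the proton-coupled myo-inositol transporter, and 24 were called above Negative in LH cells, and 41 above and 2 below in FSH cells. It had 444, 532, 516 and 631 NR in LH libraries and 542, 589, 609 and 553 NR in FSH libraries, against 214, 190.0, 124 and 185 NR in Negative libraries, and was 1 of 3 members whose highest LH library was that of sort 4. The fatty acid binding protein gene fabp3 (LOC100698043, linkage group 22, 22349898 to 22352975) had 1229, 587, 389 and 321 NR in LH libraries and 588, 471, 263 and 348 NR in FSH libraries, against 131, 142, 94.9 and 103 NR in Negative libraries. The groups did not overlap Negative, and sort 1 was highest in both gonadotrophs. The gene soul3 (LOC102083261), of the heme-binding SOUL family, had 949, 605, 490.5 and 463 NR in LH libraries and 915, 615, 501 and 526 NR in FSH libraries, against 151, 119, 166 and 160.4 NR in Negative libraries. Its LH and FSH values ran nearly level within each sort.

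The AMP deaminase gene ampd2b (LOC100709506, linkage group 20, 21315394 to 21337638) had 267, 232, 192 and 171 NR in LH libraries and 169, 244, 274 and 185 NR in FSH libraries, against 54.6, 52.8, 20.2 and 44.9 NR in Negative libraries. Both groups lay well clear of Negative, with differences of 2.37 ± 0.30 and 2.38 ± 0.30 (limma SE, n = 4 per fraction). Its span overlaps gnat2, which is also in the male table, and reads of overlapping genes may not be told apart. Of the family of apoptosis-inducing factor relatives, both listed genes were members. The gene aifm3 had 113, 64.6, 27.1 and 27.6 NR in LH libraries and 47.7, 92.6, 62.7 and 27.6 NR in FSH libraries, against 10.7, 3.02, 12.3 and 10.1 NR in Negative libraries, and aifm4 (LOC100696766) averaged 138 ± 52.0 NR in LH and 164 ± 56.0 NR in FSH cells, against 39.9 ± 8.25 NR in Negative cells (SD, n = 4 each). The glycosyltransferase genes b4galt2 and galnt13 averaged 386 ± 38.0 and 85.5 ± 17.7 NR in LH cells and 366 ± 27.0 and 101 ± 15.8 NR in FSH cells, against 134 ± 49.2 and 24.9 ± 8.16 NR in Negative cells (SD, n = 4 each). Glycosylation is part of the maturation of many secreted proteins, and the targets of these 2 enzymes were not examined.

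Some members are known from motile cilia and their base, a group picked out after the members' values were seen, so that no theme is drawn from it. A list of 31 such genes in the male table, made by name, held 4 members (dnah5, dnajb13, ccdc113 and lg22h5orf49) and 1 gene of both tables that passed the limits in males. Its medians were 1.10 for LH minus Negative and 1.23 for FSH minus Negative, against 1.05 and 1.39 over the table, and LH minus FSH ran between -2.20 (rsph1) and 0.94 (lg22h5orf49). The gene dnah5 (linkage group 11, 9942163 to 10031262) encodes a heavy chain of the outer dynein arm of cilia. It had 1546, 2383, 2321 and 1336 NR in LH libraries and 1319, 2165, 1108 and 1252 NR in FSH libraries, against 277, 706, 439 and 305 NR in Negative libraries. All gonadotroph libraries exceeded all Negative ones, and sort 2 was highest in each of the 3 fractions. The radial spoke gene dnajb13 had 27.3, 19.7, 7.29 and 3.76 NR in LH libraries and 11.2, 14.7, 8.60 and 4.80 NR in FSH libraries, against 5.36, 1.51, 1.76 and 1.12 NR in Negative libraries. It overlapped Negative in both cell types, by the libraries of sort 4. The coiled-coil gene ccdc113, whose protein lies in ciliary structures, had 40.2, 15.4, 16.7 and 8.78 NR in LH libraries and 28.1, 22.0, 22.1 and 22.8 NR in FSH libraries, against 5.36, 1.51, 6.15 and 5.61 NR in Negative libraries. The gene tub, whose mammalian protein carries membrane proteins into cilia, had 164, 95.5, 79.1 and 30.1 NR in LH libraries and 94.5, 99.2, 86.0 and 42.0 NR in FSH libraries, against 46.1, 15.1, 13.2 and 34.8 NR in Negative libraries. Its sort 4 libraries of both gonadotrophs fell below the Negative library of sort 1. Of 84 genes on the cytoskeleton and motor list, tub and ccdc113 were the members, both matched by the letters of their names, and 61 were called above Negative in LH cells, and 68 above and 6 below in FSH cells. The dynein gene dnah5 was not matched, so the count is that of the list and not of all motor genes.

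The neighbour of dnah5 in the annotation, LOC109204221 (linkage group 11, 9881500 to 9939303), is also a member and lies 2860 bases away. It had 25.7, 37.9, 48.9 and 21.3 NR in LH libraries and 19.7, 55.9, 22.1 and 21.6 NR in FSH libraries, against 4.28, 16.6, 13.2 and 2.24 NR in Negative libraries. As in dnah5, sorts 2 and 3 were the highest in LH cells and sort 2 in FSH and Negative cells. The span of LOC109204221 overlaps adcy2a, which is in the male table too. The 51 members with a position fall on 21 linkage groups, with at most 5 on one, and 20 of them overlap the span of another annotated gene, of which 3 overlap one in the male table.

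The remaining members covered a wide range of levels. The tetratricopeptide gene ttc34 had 113, 44.9, 27.1 and 17.6 NR in LH libraries and 80.5, 67.3, 36.9 and 19.2 NR in FSH libraries, against 2.14, 13.6, 5.27 and 7.85 NR in Negative libraries. The 4 sorts ranked the same in both gonadotrophs. The uncharacterized LOC102082472 had 9.65, 12.6, 14.6 and 18.8 NR in LH libraries and 16.8, 21.6, 18.4 and 13.2 NR in FSH libraries, against 2.14, 0, 7.03 and 3.37 NR in Negative libraries. Of the 59 members 17 carry only a gene number. The gene tmem74, of a transmembrane protein, had 203, 135, 98.9 and 84.1 NR in LH libraries and 98.3, 123, 84.8 and 49.2 NR in FSH libraries, against 24.6, 27.1, 14.9 and 22.4 NR in Negative libraries, without overlap. The amyloid precursor binding gene apbb2a (LOC100699740) had 269, 223, 207 and 299 NR in LH libraries and 223, 202, 225 and 363 NR in FSH libraries, against 69.6, 96.5, 58.9 and 128 NR in Negative libraries. Its highest level was that of sort 4 in each fraction. The gene lg22h5orf49 had 25.7, 5.62, 9.37 and 3.76 NR in LH libraries and 4.68, 6.12, 3.69 and 2.40 NR in FSH libraries, against 1.07, 0, 1.76 and 0 NR in Negative libraries. All of its Negative libraries held 3 reads or fewer. Over all members, the mean of the 8 LH and FSH libraries was above 100 NR in 23 and below 30 NR in 17. NR are not divided by gene length, so that they order the members by reads and not by transcripts.

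Between the 2 gonadotrophs, 27 members had the higher mean log2 level in LH cells and 32 in FSH cells. Their median LH minus FSH was -0.06, against -0.54 over the male table, and with TMM it was 0.34. In 43 members the difference was within 0.5. The LH and FSH libraries overlapped in 55 of 59 members, and in the other 4 the FSH libraries were higher. Over the male table they did not overlap in 51.8% of genes, and the limit on LH minus FSH keeps the members' count low. These were LOC100696143, with 78.1 to 153 NR in LH and 158 to 195 NR in FSH libraries, unc119, with 30.1 to 54.7 NR in LH and 56.4 to 83.3 NR in FSH libraries, rab33a and vat1. The unc119 protein is a chaperone that binds lipid-modified proteins. The gene c2cd4a (LOC100689725) had 439, 392, 345 and 289.9 NR in LH libraries and 616, 784, 658 and 315 NR in FSH libraries, against 129.6, 137, 88.7 and 122 NR in Negative libraries. Its FSH library 4 lay within the LH libraries, and the other FSH libraries lay above them. A limma adjusted p below 0.05 was reached by 2 members (background 58.6% of the table), LOC100696143 and c2cd4a, a count that the rule itself keeps low. With the sort as a block 5 were called (66.4% of the table), and without sort 2 or sort 3 both calls were lost (43.8% and 42.3% of the table). The rule used this contrast, so nothing is read from these calls.

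A test that the rule did not use is that of differences between sorts, in a limma model of fraction and sort with p-values adjusted over the 2392 genes. It called 3 of 59 members, 5.08% (background 8.9% of the table). At an unadjusted p below 0.05 there were 16 members, 27.1%, and 27.0% of the table, so in this fit the members' share was that of the table. In other settings it fell on either side of the table's. It was lower with TMM (25.4% against 29.1%) and at 10 reads on average (24.5% against 27.3%). With a pseudocount of 5 (28.8% against 26.8%) and without sort 3 (30.5% against 28.9%) it was higher. The members called were fabp3 (adjusted p = 0.0342 from limma), dnah5 (adjusted p = 0.0342) and kcnj12a (adjusted p = 0.0358). Averaged over the 3 fractions, fabp3 stood 0.63 above its mean in sort 1 and 0.46 below it in sort 3, kcnj12a stood 1.09 above in sort 1 and 0.69 below in sort 4, and dnah5 stood 0.60 above in sort 2 and 0.34 below in sort 4, all in log2. In the LH and FSH libraries alone and without sort 4, limma called 0 genes of the whole table, members included. There 21 and 16 members had an unadjusted p below 0.05, which is 35.6% and 27.1% of members, against 22.0% and 16.1% of the table. Leaving out sort 1 or sort 2 left 1 member called, with 5.31% and 4.35% of the table. The unadjusted shares were then 18.6% and 25.4% of members, against 24.7% and 22.5% of the table. In edgeR's quasi-likelihood test on the recovered reads 3 members were called, and 10.2% of the table. Its unadjusted p was below 0.05 in 39% of members and 29% of the table.

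**Figure D4:**
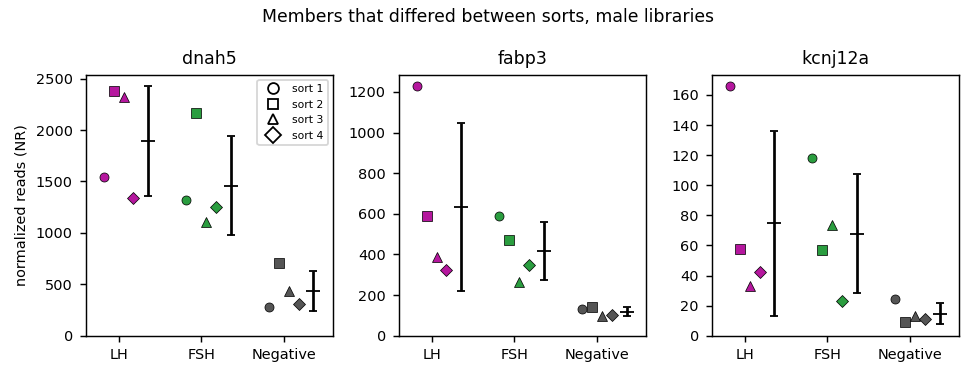
NR (y axis, linear, from 0) of the 3 members called between sorts, in male LH, FSH and Negative libraries; the marker shape gives the sort, and the bar gives the mean and SD of 4 libraries. Sort 2 (square) is highest in every fraction of dnah5, and sort 1 (circle) in every fraction of kcnj12a and in LH and FSH cells of fabp3.

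The members' levels also differed between single libraries of a fraction. LH library 1 was the highest LH library in 44 of 59 members and LH library 4 the lowest in 39, and FSH library 4 was the lowest FSH library in 33. The same counts over the male table are not given, and the rule used the means of these libraries, so nothing is read from the counts. The median deviation of members from their fraction mean was 0.54 in LH library 1 and -0.38 in LH library 4, against 0.18 and -0.13 over the male table, and -0.35 in FSH library 4, against 0.00 over the table. In Negative libraries 1 to 4 this deviation was 0.26, -0.07, -0.38 and 0.13, against 0.14, 0.06, -0.18 and 0.02 over the table. Sort 4 was thus low in LH and FSH cells and not in Negative cells. Of the gonadotroph markers, lhb, esr2 and cga were also highest in LH library 1, whereas fshb was lowest there, with 85.2, 114, 341 and 235 NR in LH libraries 1 to 4. The gene lhb had 10131 NR in LH library 1 and 4353, 3970.5 and 4158 NR in LH libraries 2 to 4, esr2 (an estrogen receptor) 1118, 515, 342 and 205 NR in LH libraries 1 to 4, and cga 20688, 10254, 8955 and 7221 NR. In FSH cells, fshb was 66403 NR in library 4, against 30489 NR in library 1, 30774 NR in library 2 and 66628 NR in library 3. FSH libraries 1 to 4 had 30519, 33035, 78399 and 44208 NR of cga, and 346, 447, 440 and 365 NR of esr2. The part of these markers in the members' levels was not tested.

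Within each sort, LH and FSH cells can be set against the Negative cells of the same number, taken as the same pool. The members' median LH minus Negative was 2.16, 2.06, 1.99 and 1.22 in sorts 1 to 4, against 0.99, 1.01, 1.22 and 0.87 over the male table. Their median FSH minus Negative was 1.70, 2.22, 2.30 and 1.47, against 1.21, 1.37, 1.64 and 1.44 over the table. Sort 4 was the lowest in both, and there the members' FSH median was near that of the table. In all 8 differences 54 of 59 members were above Negative, and the exceptions were tub, tspan13a, c1ql1l2, LOC100705677 and LOC102078694. The rule set the mean of these differences above 1.5, so nothing is read from this count. The same count over the male table is not given.

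**Figure D5:**
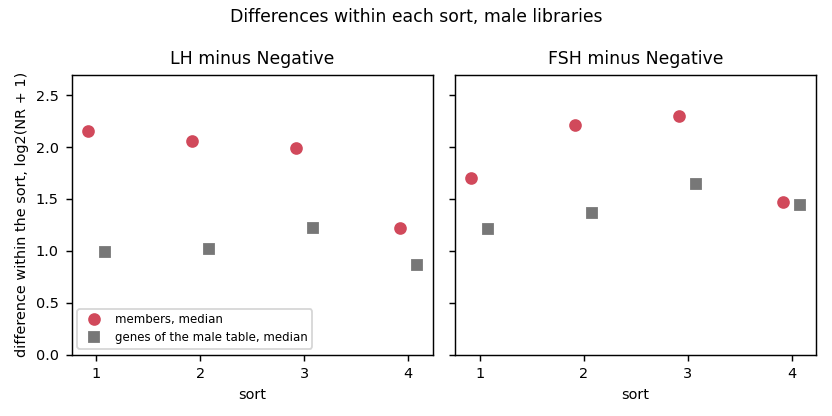
Median difference within each sort (x axis, sorts 1 to 4) on the log2(NR + 1) scale (y axis), for LH minus Negative on the left and FSH minus Negative on the right; circles are the 59 members and squares all 2392 genes of the male table. The circles stand above the squares in every sort, and the gap is smallest in sort 4, at 1.47 against 1.44 for FSH cells. The rule chose the members by the means of these differences.

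As a description, the rule was also applied to 3 sorts of the male-only genes and the differences were taken in the sort left out. The authors' choice of the table and their size factors used all 4 sorts, so the sort left out is only in part independent. Leaving out sorts 1 to 4, the rule chose 69, 49, 45 and 91 genes, of which 51, 40, 35 and 54 are members. In the sort left out, these genes had a median LH minus Negative of 1.60, 1.62, 1.48 and 1.16, against 0.94, 1.00, 1.18 and 0.80 over the 1080 male-only genes considered. Their median FSH minus Negative was 1.46, 1.82, 1.72 and 1.21, against 0.98, 1.11, 1.30 and 1.01. All 3 limits were passed again in the sort left out by 27.5%, 53.1%, 31.1% and 11.0% of them, against 7.31%, 10.6%, 16.2% and 3.70% of the male-only genes. The male-only genes include the chosen ones and genes high in LH or FSH cells alone, so no support is drawn from these shares.

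The members have no values in females, because the female table lists only genes that the authors called enriched in female LH or FSH cells. Absence from it does not show that a gene has no reads in females, and no sex difference was tested for the members. Genes in both tables give the size of the same differences in each sex. Over these 1309 genes the median LH minus Negative was 1.08 in males and 0.45 in females, and the median FSH minus Negative was 1.77 in males and 1.46 in females, each within its own table; the difference between the sexes was not tested. The 3 limits were passed by 158 of them in males and by 24 in females, with 16 in both. Female libraries held fewer reads than male ones in each fraction, each on its own table. They had 110893 to 275068 in LH, 146817 to 520458 in FSH and 69091 to 135385 in Negative cells. The part of depth in these counts and medians was not tested. Among genes in the female table only, 2 of 540 passed the limits in females. The 158 had a median of 1.98 in LH and 2.40 in FSH cells of males, against 1.82 and 1.96 in the members, and their median LH minus FSH was -0.42, against -0.06 in the members.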

How the data were processed

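RNA of sorted cells was made into libraries with a stranded low-input kit. Per the labels and methods, Trim Galore and STAR 2.201 were used for trimming and mapping (assembly O_niloticus_UMD_NMBU), after which ribosomal and bacterial reads were taken out. The submitters' processing notes name HTSeq. Whether counting used strand is not given in the sources used here. The deposited values (signal, NR) are reads per gene, divided by the authors by a DESeq2 size factor per library (NR), in 1 table per sex that lists enriched genes only. Further deposited tables hold the authors' fold changes and p-values, and were not used.

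In the male table each gene name stands 1 row below its values and was moved. Afterwards LH minus FSH of the 1309 genes in both tables correlated between the sexes at r = 0.957, against 0.123 as deposited (across genes, which are not independent). Divided by the NR of 1 read, 100% of values came out whole (tolerance 0.01 reads), which recovered the reads. Names and positions come from the RefSeq annotation of the same assembly, which matched 33 members by symbol and 18 by gene number; 8 kept the table's name.

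Log2(NR + 1) of 12 male libraries was fitted with limma 3.58.1 (R 4.3.3, mean-variance trend, no block), and p-values were adjusted by Benjamini-Hochberg over 2392 genes, all preselected by the authors as enriched. The SE of a difference is that of this fit. It rests on 1 moderated spread per gene for all fractions, so it is equal in the contrasts of a gene. Alternatives were other pseudocounts, a filter at 10 reads, TMM, edgeR 4.0.16 and DESeq2 1.42.0 on the recovered reads, a sort block and leaving out sorts. Same-numbered fractions were taken to come from 1 pool. Over the genes of the male table their deviations correlated at 0.00803 to 0.503, against -0.387 to 0.17 between fractions of different numbers. Chi-square per gene between replicates ran between 4.51 and 59.6, so none was treated as a library deposited again. The scripts were tested on simulated data. Pools are the replicates. The fits without a block treat the fractions of a pool as independent, and their p-values measure the spread between libraries of a fraction. The test between sorts measures the sorts against the spread left after fraction and sort.

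The text names the 8 members with most NR, the 8 with the largest smaller difference, members on 9 function lists, those at the limits (3 on each side) and those called between sorts, and further members chosen after their values were seen. Of the 9 lists, that of G protein and small GTPase regulators (38 genes of the male table) matched 0 members. Members, lists and tests were chosen with earlier results of these data known. Values of 1 member and of a related gene are not reported here, and the counts include that member.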

Additional observations from a re-analysis of the deposited data

Results flagged for a closer look

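In each fraction the 4 libraries were searched for one whose gap to the nearest other exceeds Dixon's 95% limit, in 102 groups of values, of which 9 stood out; chance gives about 1 in 20. High libraries were npnt in FSH library 4 (61.2 NR, against 13.5 to 18.0 NR in the others), ppp1r1a in LH library 1 (124 NR, against 47.9 to 53.4 NR), LOC100692145 in LH library 1 (32.2 NR, against 12.5 to 14.6 NR), ccdc113 in FSH library 1 (28.1 NR, against 22.0 to 22.8 NR) and apbb2a in FSH library 4 (363 NR, against 202 to 225 NR). Low libraries were ppp1r1a in Negative library 3 (7.91 NR, against 16.6 to 17.9 NR), cntnap2b in Negative library 3 (50.1 NR, against 81.9 to 85.9 NR) and ccdc113 in Negative library 2 (1.51 NR, against 5.36 to 6.15 NR). The sum over the 59 members was also low in Negative library 3, at 3120.1 NR, against 4572 to 4651 NR in the other Negative libraries.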

How the results depend on the processing

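The number of male-only genes past the 3 limits, without those left out by name, was 59. It was 28 with a pseudocount of 5 and 0 with TMM, and leaving out 1 sort at a time gave 45 to 91 genes, the highest without sort 4 (54 of them members). After seeing the data, single libraries were also left out, which gave 44 genes without LH library 1 (43 members), 42 without Negative library 3 (39 members) and 67 without FSH library 4 (55 members). With TMM, which centres a table of genes chosen for enrichment, 11 members were called in LH cells (18.6%, against 6.56% of the table) and 2 in FSH cells (3.39%, against 13.1%), and the medians were 0.93 for LH minus Negative, 0.63 for FSH minus Negative and 0.34 for LH minus FSH. Leaving out a sort gave 50 to 59 members called in LH cells (41.1% to 51.6% of the table) and 52 to 59 in FSH cells (67.5% to 75.2%). Members called between LH and FSH were 2, with 5 under the sort as a replicate block, 4 by DESeq2 and 0 to 2 without 1 sort (0 without sort 2 or sort 3). The block, which follows the replicate numbers, left 59 members called in each of the contrasts with Negative. Members called between sorts were 3, with 0 in LH and FSH libraries alone and 0 to 2 without 1 sort (0 without sort 4); in both settings with 0, limma called 0 genes of the whole table. The cause of these shifts was not tested. Depth limits the 24 members with a Negative library at 3 reads or fewer.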
